A study of Mus musculus with 6 samples.

Results

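The genes described here are 35 genes of skeletal muscle that encode parts of the sarcomere, proteins that release or take up calcium, and 2 proteins of muscle energy and oxygen supply. They were found in a table of 33971 mouse genes by an exact match of the gene symbol, and all 35 were in the table under a single identifier. The match itself used no measured value, but the set was drawn up with earlier results of these data known. Articular cartilage of wild-type mice (genotype WT) was sequenced at 2 months and at 18 months of age, with 3 libraries at each age, and the labels name no treatment. The methods state that male mice were used. Counts of Xist, made from the inactive X chromosome of female cells, lay between 88239 and 102417 at 2 months and between 11 and 30 at 18 months, and age cannot be told apart from whatever gave that difference. The methods call the samples of the study independent, but neither they nor the labels say that each replicate was a separate animal, so p-values measure the spread between these libraries, which may be technical. Between 48171507 and 59085179 counts were available per library. Of the defining cartilage genes, all 12 on a chondrocyte list (Col2a1, Acan and others) were detected in the 2-month libraries, where they took 3.68% to 6.24% of counts, against 0.0584% to 0.143% at 18 months, and Matn1 and Cnmd, 2 cartilage matrix genes, had at most 13 and 148 counts there.

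Skeletal muscle fibres are packed with sarcomeres, in which myosin heavy and light chains pull on actin filaments, while troponin and tropomyosin on the actin filament make the pull depend on calcium. Fast fibres, slow fibres and developing fibres use different isoforms of the same part. Several slow isoforms, among them the heavy chain Myh7, the light chain Myl2 and troponin C Tnnc1, are also made in the heart. Calcium leaves the sarcoplasmic reticulum through Ryr1 when the voltage sensor Cacna1s moves, is stored on calsequestrin and is pumped back by Atp2a1. Cartilage itself contains no muscle fibre, but muscle lies next to it at the joint, and fast troponin I has been described as a protein of cartilage.

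The RefSeq promoter table (GRCm38.p6) held an entry for 28 of the 35 genes, and not for Actn3, Tnni2, Tnnt3, Neb, Myoz1, Myot or Tcap. The 250 bases before the start are shown for 8 genes whose values differ in the ways described below. They are the slow and the fast troponin C, 2 subunits of slow troponin that changed in opposite directions with age, the heavy chain with the most counts, and 3 genes whose counts fell to low values or to 0. Capitals mark E-boxes, the CANNTG motif of the MyoD family of muscle regulators, and matches to the consensus of MEF2, a factor of muscle genes, and to the CArG box, which serum response factor binds. The motifs were searched on both strands, and none of the marked matches overlapped another.
Tnnc1, chr14:31208062-31208311, plus strand: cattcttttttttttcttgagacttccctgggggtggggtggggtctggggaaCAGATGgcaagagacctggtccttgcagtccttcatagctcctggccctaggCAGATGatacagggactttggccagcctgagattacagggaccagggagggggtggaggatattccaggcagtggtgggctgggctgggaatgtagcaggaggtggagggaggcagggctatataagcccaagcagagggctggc
Tnnc2, chr2:164779735-164779984, minus strand: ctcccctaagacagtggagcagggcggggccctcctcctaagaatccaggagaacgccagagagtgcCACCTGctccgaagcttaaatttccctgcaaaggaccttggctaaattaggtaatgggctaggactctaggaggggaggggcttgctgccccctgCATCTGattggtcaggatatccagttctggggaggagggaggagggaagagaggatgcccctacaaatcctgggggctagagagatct
Tnni1, chr1:135799171-135799420, plus strand: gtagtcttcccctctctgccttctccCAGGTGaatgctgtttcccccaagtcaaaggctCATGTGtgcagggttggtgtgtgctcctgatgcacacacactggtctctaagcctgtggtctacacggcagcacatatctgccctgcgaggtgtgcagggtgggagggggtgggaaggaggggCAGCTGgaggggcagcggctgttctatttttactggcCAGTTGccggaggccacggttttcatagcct
Tnnt1, chr7:4515976-4516225, minus strand: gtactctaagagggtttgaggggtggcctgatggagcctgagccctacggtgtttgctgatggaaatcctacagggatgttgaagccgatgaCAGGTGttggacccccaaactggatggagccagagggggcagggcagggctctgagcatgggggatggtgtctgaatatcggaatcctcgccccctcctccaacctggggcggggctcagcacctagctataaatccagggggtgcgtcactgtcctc
Myh7, chr14:54994627-54994876, minus strand: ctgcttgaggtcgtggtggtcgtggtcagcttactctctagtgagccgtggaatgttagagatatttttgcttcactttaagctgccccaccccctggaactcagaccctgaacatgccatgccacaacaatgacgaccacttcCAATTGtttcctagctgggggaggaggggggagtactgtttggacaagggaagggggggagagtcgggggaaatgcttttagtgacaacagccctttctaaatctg
Acta1, chr8:123894776-123895025, minus strand: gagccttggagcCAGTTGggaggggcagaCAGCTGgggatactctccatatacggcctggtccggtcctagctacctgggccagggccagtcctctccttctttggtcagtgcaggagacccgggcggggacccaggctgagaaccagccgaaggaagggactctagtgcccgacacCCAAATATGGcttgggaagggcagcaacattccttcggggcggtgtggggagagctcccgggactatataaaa
Ckm, chr7:19410844-19411093, plus strand: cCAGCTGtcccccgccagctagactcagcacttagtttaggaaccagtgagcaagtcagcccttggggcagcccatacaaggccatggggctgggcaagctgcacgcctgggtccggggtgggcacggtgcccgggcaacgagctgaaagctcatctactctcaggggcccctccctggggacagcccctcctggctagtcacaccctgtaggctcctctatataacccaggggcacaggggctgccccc
Pvalb, chr15:78206401-78206650, minus strand: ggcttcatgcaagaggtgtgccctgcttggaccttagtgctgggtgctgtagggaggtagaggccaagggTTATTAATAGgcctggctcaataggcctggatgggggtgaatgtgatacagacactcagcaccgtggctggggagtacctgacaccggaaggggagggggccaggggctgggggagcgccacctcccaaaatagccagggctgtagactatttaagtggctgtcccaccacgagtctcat
At least 1 E-box lay in 23 of the 28 promoters (82.1%), against 61.3% of the 15909 promoters of the same length that were matched to a gene of the table. A MEF2 match lay in 5 of the 28 (17.9%), against 2.17% of all, and a CArG match in 3 (10.7%), against 1.19%. The 2 troponin C promoters hold 2 E-boxes each, and the promoters of Tnni1 and Tnnt1 hold 4 and 1. The CArG match of Acta1 begins 73 bases before its start and the MEF2 match of Pvalb 180 bases before. The RefSeq starts used for Tnni1 and Ckm lie 19987 and 6318 bases from the deposited starts of these genes. These are matches of letters, and no binding was measured.

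The 35 genes together took a small share of all RNA at both ages, and that share was lower at 18 months. Their summed counts were 0.0353% (95% Wilson interval 0.0348% to 0.0358%), 0.0422% (0.0416% to 0.0427%) and 0.0410% (0.0404% to 0.0415%) of the library in 2-month replicates 1, 2 and 3. In 18-month replicates 1, 2 and 3 the shares were 0.00699% (0.00678% to 0.00720%), 0.00931% (0.00905% to 0.00956%) and 0.00856% (0.00832% to 0.00880%). The ages did not overlap, with means of 0.0395% ± 0.00366 and 0.00828% ± 0.00118 (SD, n = 3 each), and the intervals cover counting error only. In bulk tissue, fewer cells of a type and less RNA per cell cannot be told apart. The makeup of the sum also differed. Tnni2 and Myh7 gave 19.3% to 31.0% and 20.3% to 33.0% of it in the 2-month libraries, whereas at 18 months Tpm2, a tropomyosin that cells outside skeletal muscle also make, gave 42.6% to 44.2%.

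**Figure D1:**
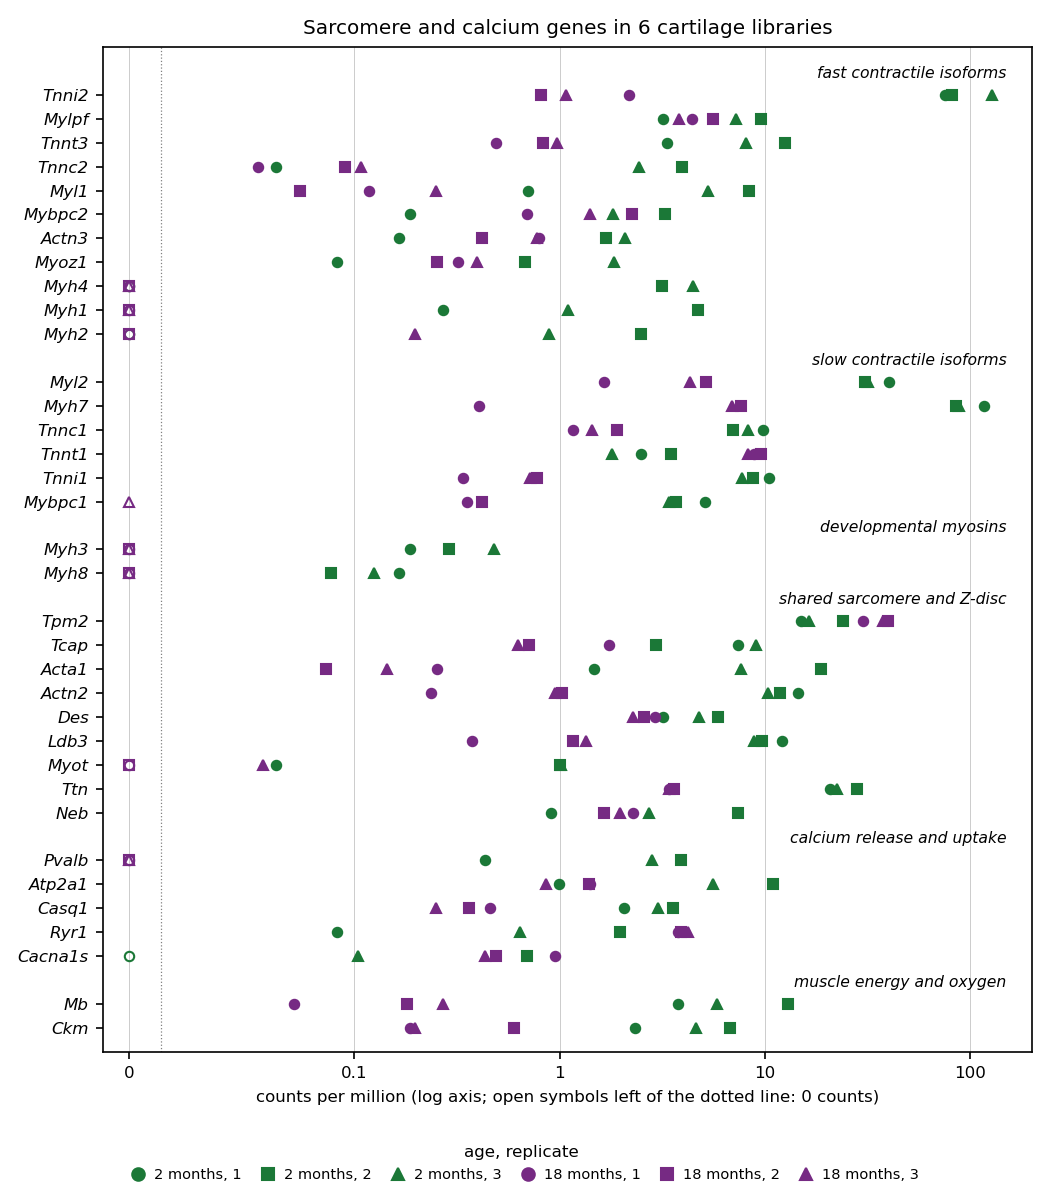
CPM (counts scaled to the library total, log axis) of each of the 35 genes in each library, grouped by role, with 2-month libraries in green and 18-month libraries in purple. Open symbols left of the dotted line are 0 counts, and a reader can see that the green symbols of most slow genes lie close together while those of most fast genes spread over 10-fold or more.

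Each gene was tested with edgeR's quasi-likelihood test on the counts, with Benjamini-Hochberg adjustment over the 20397 genes that passed the filter on low counts. A gene was called when its adjusted p was below 0.05 and its log2 fold change of 18 against 2 months was above 1 or below -1. Of the 35 members, 30 passed the filter, and 18 of them were called lower and 1 higher. Over all genes tested, 21.3% were called lower and 14.9% higher. Every 18-month library lay below every 2-month library for 22 of the 35, against 7919 of the 33971 genes in the table. Of the 30 tested, 19 did so, where 32.9% of all tested genes did. For Myot, which is among the 22, 2-month replicate 1 and 18-month replicate 3 both had 2 counts, so its order rests on the library totals. The opposite order, with every 18-month library above, held for 3 members, where 35.6% of all tested genes did so. The median log2 fold change was -3.18 over the 30 members and -0.02 over all tested genes. Leaving out each library in turn gave 16 to 24 members called lower. It gave 1 to 4 called higher, and the 4 arose without 2-month replicate 2 and were Tnnt1, Tpm2, Ryr1 and Cacna1s.

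The 11 fast isoforms summed to 82.98, 132 and 162 CPM (counts scaled to the library total) in 2-month replicates 1, 2 and 3 and to 8.99 to 10.3 CPM at 18 months. Of the 9 that were tested, 4 were called lower (Tnni2, Tnnt3, Myl1 and Myh1) and 5 were not called. Among all tested genes, 21.3% were called lower. Most of the 2-month level came from Tnni2 (ENSMUSG00000031097, chromosome 7 from 142441808 to 142444410, plus strand), the inhibitory troponin subunit of fast fibres. The deposited coordinates of 30 of the 35 genes, Tnni2 among them, are identical to those of GENCODE M21 on GRCm38. Tnni2 had 3625, 4203 and 6120 counts in the 2-month libraries and 128, 45 and 60 in the 18-month libraries. Its FPKM, a count scaled by transcript length and library total, was 54.9 ± 15.6 at 2 months and 0.779 ± 0.424 at 18 months (SD, n = 3 each), a log2 fold change of -6.21 (SE 0.50, edgeR adjusted p = 0.00107). Tnni2 was the most abundant of the 35 genes by FPKM at 2 months. In the 2-month libraries it held 90.4%, 61.7% and 78.3% of the counts of the fast list, and in the 18-month libraries 7.94% to 24.0%. Without it, a sum looked at after the values were known, the remaining 10 fast isoforms reached 7.99 CPM in 2-month replicate 1, which is inside the 18-month range of 6.85 to 9.46 CPM, but 50.4 and 35.2 CPM in 2-month replicates 2 and 3.

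The other called fast genes had that same uneven 2-month level. Tnnt3, the subunit that ties troponin to tropomyosin in fast fibres, had 162, 650 and 391 counts at 2 months and 29, 46 and 54 at 18 months, a log2 fold change of -3.43 (SE 0.57, edgeR adjusted p = 0.00519). Myl1, an essential myosin light chain of fast fibres, had 34, 431 and 254 counts at 2 months and 7, 3 and 14 at 18 months, a log2 fold change of -5.09 (SE 1.08, edgeR adjusted p = 0.0116). For both genes the ages did not overlap, and in both replicate 1 was the lowest 2-month library. The change of Myl1 was -4.46 without 2-month replicate 2 and -5.79 without 18-month replicate 3. Among the adult fast heavy chains, Myh1 (type IIx) had 13, 244 and 53 counts at 2 months and 0 in each 18-month library, at least 38.3-fold lower in CPM against a floor of 3 counts per library (edgeR adjusted p = 0.0247). That call was lost without 18-month replicate 2 or 3 or 2-month replicate 3, with edgeR adjusted p of 0.0509, 0.0511 and 0.0631, and the fitted log2 fold change of -9.74, which is no bound, was -8.25 without 2-month replicate 2. Myh2 (type IIa) had 0, 129 and 43 counts at 2 months and 0, 0 and 11 at 18 months and was not called (edgeR adjusted p = 0.145). Myh4 (type IIb) had 0, 163 and 214 counts at 2 months and 0 in each 18-month library. It did not pass the filter, and its ages touch at 0. The 3 adult fast heavy chains therefore had between 0 and 13 counts each in 2-month replicate 1 and 43 to 244 in replicates 2 and 3.

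Of the fast isoforms that were not called, Mylpf, the regulatory light chain of fast fibres, stood highest at 18 months. It had 154, 495 and 348 counts at 2 months and 260, 307 and 213 at 18 months, and the ages overlapped (log2 fold change -0.59, SE 0.41, edgeR adjusted p = 0.27). Mybpc2, the fast myosin-binding protein C, had 9, 168 and 88 counts at 2 months and 41, 124 and 78 at 18 months, and it also overlapped. Tnnc2, the calcium sensor of fast troponin, had 2, 203 and 117 counts at 2 months and 2, 5 and 6 at 18 months, and the filter removed it. Actn3 (the fast fibre alpha-actinin) and Myoz1 (a Z-disc protein that binds calcineurin) overlapped as well, with 8 to 100 and 4 to 89 counts at 2 months. Without 2-month replicate 1, Actn3 passed both limits (log2 fold change -1.56, edgeR adjusted p = 0.0437) and so did Tnnc2 (-5.35, edgeR adjusted p = 0.00661). So did Myh4 (edgeR adjusted p = 0.00868), whose fitted change against a group at 0 is no bound.

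Most of the slow isoforms differed from most of the fast ones in the 2-month libraries, where the slow ones were close to level. The exception was Tnnt1, whose highest and lowest 2-month CPM differed 1.94-fold, against 1.69-fold for the fast isoform Tnni2. Of the 6 slow isoforms, 5 were called lower and 1, Tnnt1, was called higher, where 21.3% and 14.9% of all tested genes were. Myh7 (ENSMUSG00000053093, chromosome 14 from 54970684 to 54994626, minus strand) is the heavy chain of slow fibres and is also made in the heart. It had 5640, 4419 and 4227 counts at 2 months and 24, 421 and 387 at 18 months. Its log2 fold change was -4.34 (SE 1.04, edgeR adjusted p = 0.0173), and the ages were apart. The 18-month libraries were not alike, since replicate 1 had 24 counts and the others 421 and 387, and without 18-month replicate 3 the call was lost (-4.64, edgeR adjusted p = 0.0546). Myl2, the regulatory light chain of the same fibres, had 1944, 1593 and 1529 counts at 2 months and 97, 284 and 241 at 18 months (log2 fold change -3.28, SE 0.47, edgeR adjusted p = 0.00358). By FPKM, Myl2 was the most abundant slow isoform at 2 months, at 15.3 ± 2.41 against 1.65 ± 0.828 (SD, n = 3 each) at 18 months.

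The slow troponin complex did not move as a unit. Tnni1, its inhibitory subunit, had 508, 450 and 371 counts at 2 months and 20, 43 and 40 at 18 months, a log2 fold change of -3.94 (SE 0.42, edgeR adjusted p = 0.00171). Tnnc1, its calcium sensor, had 475, 362 and 400 counts at 2 months and 69, 105 and 80 at 18 months, a log2 fold change of -2.56 (SE 0.31, edgeR adjusted p = 0.00223). Tnnt1 (ENSMUSG00000064179, chromosome 7 from 4504570 to 4516382, minus strand), its tropomyosin-binding subunit, went the other way, with 121, 181 and 87 counts at 2 months and 525, 526 and 462 at 18 months. For all 3 subunits the ages were apart. Tnnt1 was 3.27-fold higher (log2 fold change 1.71, SE 0.28, edgeR adjusted p = 0.00481), it was called in each of the 6 fits that left out 1 library, and at 18 months it had more counts than Myh7 in every library. Mybpc1, the slow myosin-binding protein C, had 246, 190 and 165 counts at 2 months and 21, 23 and 0 at 18 months (log2 fold change -4.05, SE 1.14, edgeR adjusted p = 0.0291). That call was lost without 18-month replicate 1 or 2 or 2-month replicate 1 or 3 (edgeR adjusted p between 0.0597 and 0.0803), and the change was -3.46 without 18-month replicate 3.

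Developmental heavy chains were close to the limit of detection at 2 months and absent from the counts at 18 months. Myh3, the embryonic heavy chain, had 9, 15 and 23 counts at 2 months and Myh8, the perinatal one, had 8, 4 and 6. Both had 0 in each 18-month library, where a count of 0 allows up to 0.0508 to 0.0543 CPM, and their mean CPM was at least 6.0-fold and 2.31-fold lower against that floor. Neither passed the filter on low counts with all 6 libraries, so the change was not tested in the main fit. With no filter Myh3 was past both limits (edgeR adjusted p = 0.0205) and Myh8 was not (0.0523). Myh3 passed the filter and was called lower in each of the 6 fits that left out 1 library (edgeR adjusted p between 0.0171 and 0.0387). DESeq2 called both lower (DESeq2 adjusted p = 5.4e-05 for Myh3 and 0.0107 for Myh8). At 2 months their CPM was 0.318 ± 0.148 for Myh3 and 0.122 ± 0.0441 for Myh8 (SD, n = 3).

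Among 9 genes of the sarcomere and Z-disc that fast and slow fibres share, 8 were tested. Of these 8, 5 were called lower and 3 were not called, where 21.3% of all tested genes were called lower. Acta1, the actin of the skeletal muscle thin filament, had 71, 972 and 369 counts at 2 months and 15, 4 and 8 at 18 months. Its ages were apart, with a log2 fold change of -5.91 (SE 1.09, edgeR adjusted p = 0.00726) that was -4.93 without 2-month replicate 2. Ttn, the giant spring protein of the sarcomere, had 1001, 1444 and 1077 counts at 2 months and 201, 200 and 191 at 18 months, which gave the smallest error of any member (log2 fold change -2.83, SE 0.15, edgeR adjusted p = 0.000706). Actn2, an alpha-actinin of the Z-disc in fast and slow fibres and in heart, had 698, 612 and 501 counts at 2 months and 14, 57 and 53 at 18 months (log2 fold change -4.11, SE 0.62, edgeR adjusted p = 0.00391). Ldb3, a Z-disc protein that binds alpha-actinin, followed the same course, with 587, 501 and 425 counts at 2 months and 22, 64 and 75 at 18 months (log2 fold change -3.48, SE 0.54, edgeR adjusted p = 0.00439). In Actn2 and Ldb3, as in Myh7, the 2-month libraries were close and 18-month replicate 1 was the lowest of all 6. Tcap, which caps titin at the Z-disc, had 359, 153 and 434 counts at 2 months and 103, 39 and 35 at 18 months (log2 fold change -2.76, SE 0.63, edgeR adjusted p = 0.0148). It was not called without 18-month replicate 2 or 3 (edgeR adjusted p = 0.0583 and 0.0552), and its change was -3.34 without 18-month replicate 1.

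The shared gene with the highest mean FPKM over both ages was Tpm2, and it was not lower at 18 months. At 2 months alone Tcap stood above it, at 5.93 against 5.55 FPKM. Tpm2 had 725, 1243 and 794 counts at 2 months and 1774, 2188 and 2106 at 18 months, so the ages were apart with 18 months higher. Its log2 fold change of 0.89 (SE 0.20, edgeR adjusted p = 0.0149) stayed under the limit of 1, and it was 1.02 without 18-month replicate 1 and 1.11 without 2-month replicate 2, both past the limit. Des, the intermediate filament that links neighbouring myofibrils, had a log2 fold change of -0.90 (SE 0.28, edgeR adjusted p = 0.0418), which was -1.08 and called without 2-month replicate 1. Neb, the ruler of the thin filament, overlapped between the ages, with 44 to 384 counts at 2 months and 91 to 134 at 18 months. Myot, a Z-disc protein that binds filamin, had 2, 52 and 49 counts at 2 months and 0, 0 and 2 at 18 months and was not tested.

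The calcium genes divided. Of 5 tested, Casq1 and Pvalb were called lower, and Ryr1, Cacna1s and Atp2a1 were not called. The share called lower over all tested genes was 21.3%. Casq1, the calcium store protein of fast fibres, had 99, 185 and 146 counts at 2 months and 27, 20 and 14 at 18 months (log2 fold change -3.07, SE 0.38, edgeR adjusted p = 0.00233). Pvalb, a calcium buffer of fast fibres, had 21, 202 and 136 counts at 2 months and 0 in each 18-month library, at least 45.1-fold lower in CPM against the floor of 3 counts (edgeR adjusted p = 0.0128). Pvalb was also the most abundant of the 5 by FPKM at 2 months, at 1.98 ± 1.5 (SD, n = 3). Ryr1, the calcium release channel, took the opposite order, with 4, 102 and 31 counts at 2 months and 223, 215 and 236 at 18 months. The ages were apart and the log2 fold change was 2.11, but with the spread at 2 months it was not called (SE 0.94, edgeR adjusted p = 0.108). Without 2-month replicate 2 the change was 3.36 and was called (edgeR adjusted p = 0.0138). Cacna1s, the voltage sensor that opens Ryr1, had 0, 36 and 5 counts at 2 months and 56, 27 and 24 at 18 months, overlapped, and was called only in the fit without 2-month replicate 2 among those that left out 1 library (log2 fold change 3.43, edgeR adjusted p = 0.05 after rounding). Atp2a1, the calcium pump of fast fibres, had 48, 567 and 269 counts at 2 months and 83, 77 and 48 at 18 months, and was not called (log2 fold change -2.30, SE 0.81, edgeR adjusted p = 0.058). Among the fits that left out 1 library it was called only without 2-month replicate 1 (-2.79, edgeR adjusted p = 0.00943), and DESeq2 on all 6 libraries also called it (-2.22, DESeq2 adjusted p = 0.00413).

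Both genes of energy and oxygen supply were called lower, as were 21.3% of all tested genes. Ckm, the creatine kinase of muscle, had 112, 348 and 222 counts at 2 months and 11, 33 and 11 at 18 months (log2 fold change -3.84, SE 0.68, edgeR adjusted p = 0.00635). Mb, the oxygen-binding myoglobin, had 183, 672 and 283 counts at 2 months and 3, 10 and 15 at 18 months (log2 fold change -5.52, SE 0.80, edgeR adjusted p = 0.00356). In both genes the ages were apart and 2-month replicate 2 was the highest library. The change of Ckm was -4.61 without 18-month replicate 2 and that of Mb was -4.91 without 2-month replicate 2.

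**Figure D2:**
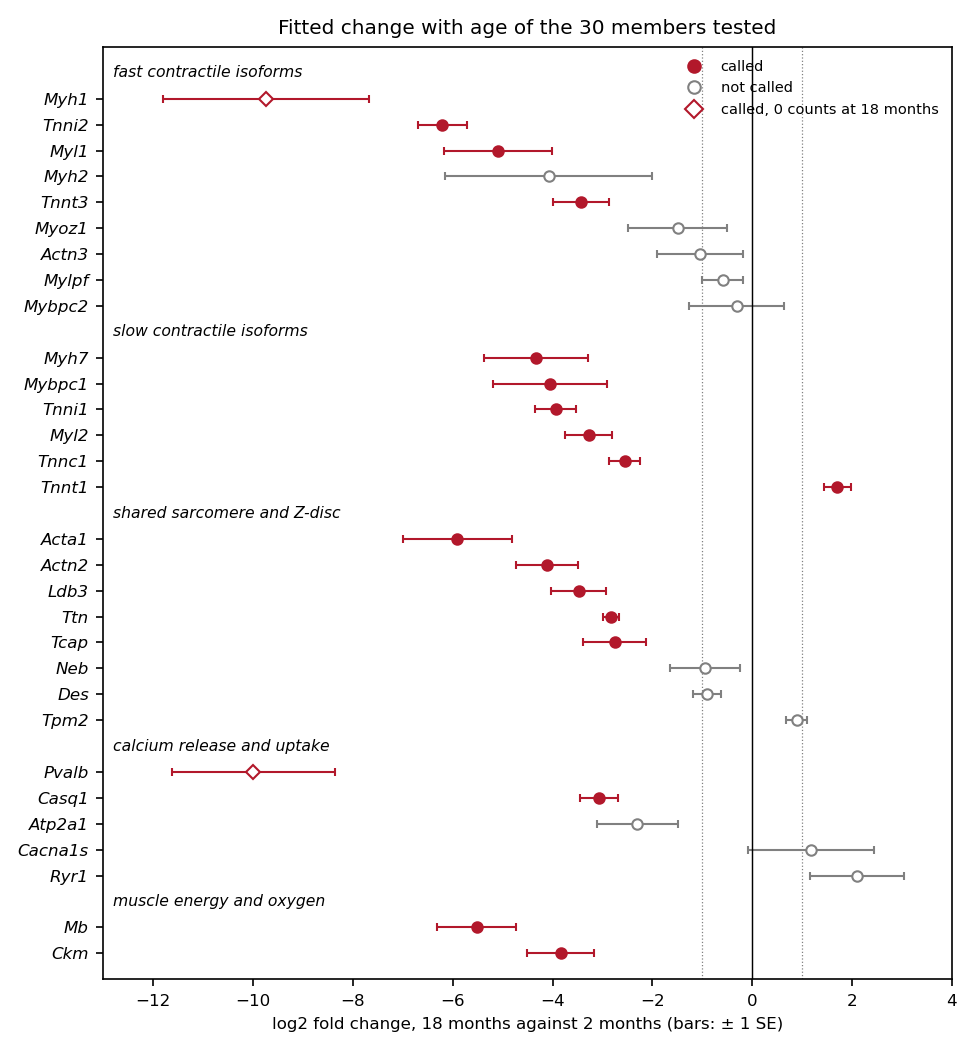
Fitted log2 fold change of 18 against 2 months, with bars of 1 SE, for the 30 members that passed the filter, grouped by role. Filled red points were called, grey points were not, and open red diamonds (Myh1 and Pvalb) had 0 counts in each 18-month library, so that their fitted value depends on the small count the fit adds and is no bound. Tnnt1 is the only called gene to the right of 0.

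Ratios of paired isoforms within a library do not depend on the scaling between libraries, and FPKM allows levels of different genes to be set side by side. The fast to slow ratio of troponin T (Tnnt3 to Tnnt1) was 1.88, 5.13 and 6.34 in the 2-month libraries and 0.0749, 0.118 and 0.160 in the 18-month libraries, so the prevailing isoform changed from fast to slow. For troponin I (Tnni2 to Tnni1) it was 17.2, 22.5 and 39.7 at 2 months and 15.9, 2.54 and 3.62 at 18 months, and the fast isoform prevailed in all 6 libraries. For troponin C (Tnnc2 to Tnnc1) the slow isoform prevailed throughout, with ratios of 0.0033, 0.731 and 0.376 at 2 months and 0.0202, 0.0566 and 0.0919 at 18 months. Myosin regulatory light chain and myosin-binding protein C moved the other way. Mylpf to Myl2 was 0.143, 0.571 and 0.415 at 2 months and 5.04, 1.98 and 1.62 at 18 months. Mybpc2 to Mybpc1 was 0.0411, 1.12 and 0.679 at 2 months and 2.55 and 6.98 in 18-month replicates 1 and 2, while replicate 3 had no Mybpc1. The calcium pump Atp2a1 stayed far below Atp2a2, the pump of slow fibres and of many other cells, with ratios of 0.00787 to 0.0808 at 2 months and 0.00875 to 0.0148 at 18 months. The range within an age was widest for troponin C at 2 months, where replicates 1 and 2 differed more than 100-fold, and the ages overlapped for troponin C and the calcium pump only.

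**Figure D3:**
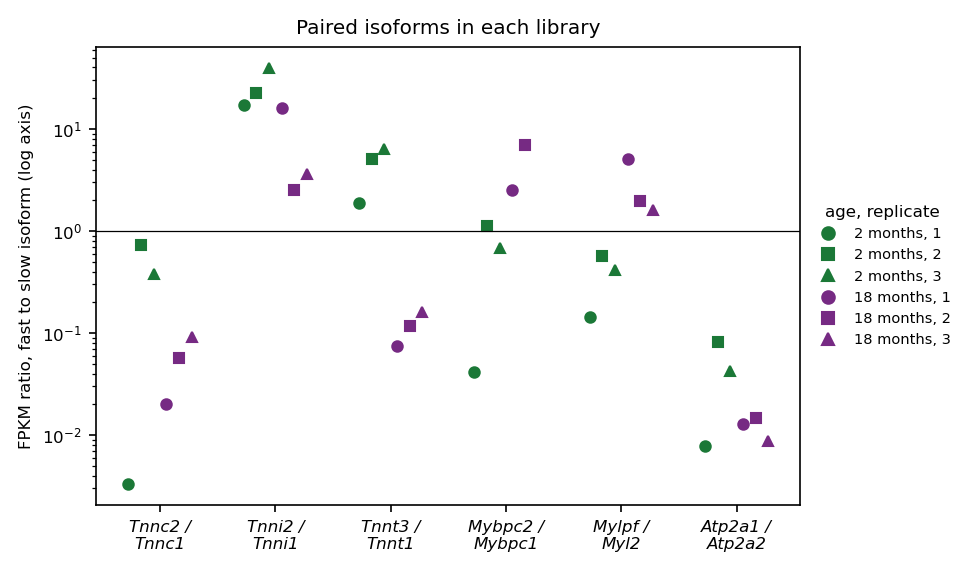
FPKM ratio of the fast to the slow isoform (log axis) for 6 pairs in each library, with the line at a ratio of 1. Purple 18-month symbols lie below the green 2-month symbols for troponin T and troponin I and above them for Mybpc2 to Mybpc1 and Mylpf to Myl2, and the value of 18-month replicate 3 is missing for Mybpc2 to Mybpc1, where Mybpc1 had no count.

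Of the summed FPKM of the 6 heavy chains, Myh7 held 99.4%, 85.6% and 90.1% in the 2-month libraries. The adult fast chains Myh1, Myh2 and Myh4 together held 0.298%, 13.9% and 9.14%, and Myh3 and Myh8 each held under 1% in every library. The sum itself was 12.0, 10.2 and 9.70 FPKM at 2 months and 0.0396, 0.773 and 0.726 at 18 months. At 18 months Myh7 held 100% in replicates 1 and 2 and 96.8% in replicate 3, where Myh2 had its 11 counts. Reads could be divided wrongly between heavy chains only where their sequences are alike. Of the windows of 150 bases in the longest coding transcript (GENCODE M21), 2.49% of Myh1 and 2.06% of Myh2 were identical to a window of another chain of this group, and 5.43% of Myh7 was identical to the cardiac chain Myh6. No such window was shared by the actins, troponins, alpha-actinins or other pairs compared here. Exons of 16 of the 35 genes overlap a gene on the other strand and none overlaps a gene on its own strand. The libraries keep the strand, but whether the counting used it is not given in the sources used here.

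The slow and the fast genes differed in their spread over the 2-month libraries. Between the highest and the lowest 2-month library the CPM of the tested members differed by a median factor of 1.38 for the slow isoforms and 12.5 for the fast isoforms, where the median over all tested genes was 1.55. From 2-month replicate 1 to replicate 2 the median ratio was 0.750 for the slow isoforms and 10.2 for the fast isoforms. Set against Myh7 in the same library, Myl2 had 34.5%, 36.0% and 36.2% of its counts at 2 months, Actn2 had 12.4%, 13.8% and 11.9%, and Mybpc1 had 4.36%, 4.30% and 3.90%. At 18 months these ratios were not level, with 404%, 67.5% and 62.3% for Myl2, 58.3%, 13.5% and 13.7% for Actn2 and 87.5%, 5.46% and 0% for Mybpc1. At 2 months Myl1 had 0.603%, 9.75% and 6.01% of the counts of Myh7, and Acta1 had 1.26%, 22.0% and 8.73%. These genes were picked after the values were seen and the differences between the lists were not tested. Tnni2 stood apart from both patterns, with 64.3%, 95.1% and 145% of the counts of Myh7, a 2.25-fold range.

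Isoforms that the adult heart uses were present beside the slow genes. All 9 genes of a cardiac list were lower in every 18-month library than in every 2-month library, an order held by 32.9% of all tested genes. Of the 9, 8 were called lower, where 21.3% of all tested genes were. The summed level of the 9 cardiac genes was 161 to 196 CPM at 2 months and 11.9 to 25.0 CPM at 18 months. Actc1, the cardiac actin and the most abundant of them, had 3539, 2923 and 2864 counts at 2 months and 76, 280 and 299 at 18 months. Myh6, a cardiac heavy chain, had 1476, 1224 and 1269 counts at 2 months and 27, 180 and 130 at 18 months. Nppa, the atrial natriuretic peptide, had 370, 259 and 264 counts at 2 months and 12, 52 and 35 at 18 months. Relative to Myh7, Actc1 had 62.7%, 66.1% and 67.8% of its counts at 2 months and 317%, 66.5% and 77.3% at 18 months, where replicate 1 held only 24 counts of Myh7. Myh6 had 26.2%, 27.7% and 30.0% at 2 months and 112.5%, 42.8% and 33.6% at 18 months. Mybpc3, the cardiac myosin-binding protein C, had 17.8% to 19.9% at 2 months and 367%, 58.7% and 47.5% at 18 months, and Tnni3, cardiac troponin I, had 4.05% to 4.34% and then 442%, 29.0% and 20.9%. For the genes named, these ratios were thus close among the 2-month libraries and mostly higher and more scattered at 18 months. Not every gene of the list kept its level against Myh7. Over the 9 genes the CPM ratio of 2-month replicate 2 to replicate 1 ran from 0.655 to 1.59 (median 0.773), against 0.733 for Myh7. None of the 9 was at 0 in a 2-month library, and replicate 1 was the lowest 18-month library for Actc1, Myh6 and Nppa as it was for Myh7. That order did not hold for the whole list. Over the 9 genes the CPM ratio of 18-month replicate 2 to replicate 1 ran from 0.292 to 7.14 (median 2.59), with counts under 3 set to 3. In 18-month replicate 2, 1 of the 9 had 0 counts. The part of other muscle types in the levels of Myh7, Myl2 and Tnnc1 was not tested.

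**Figure D4:**
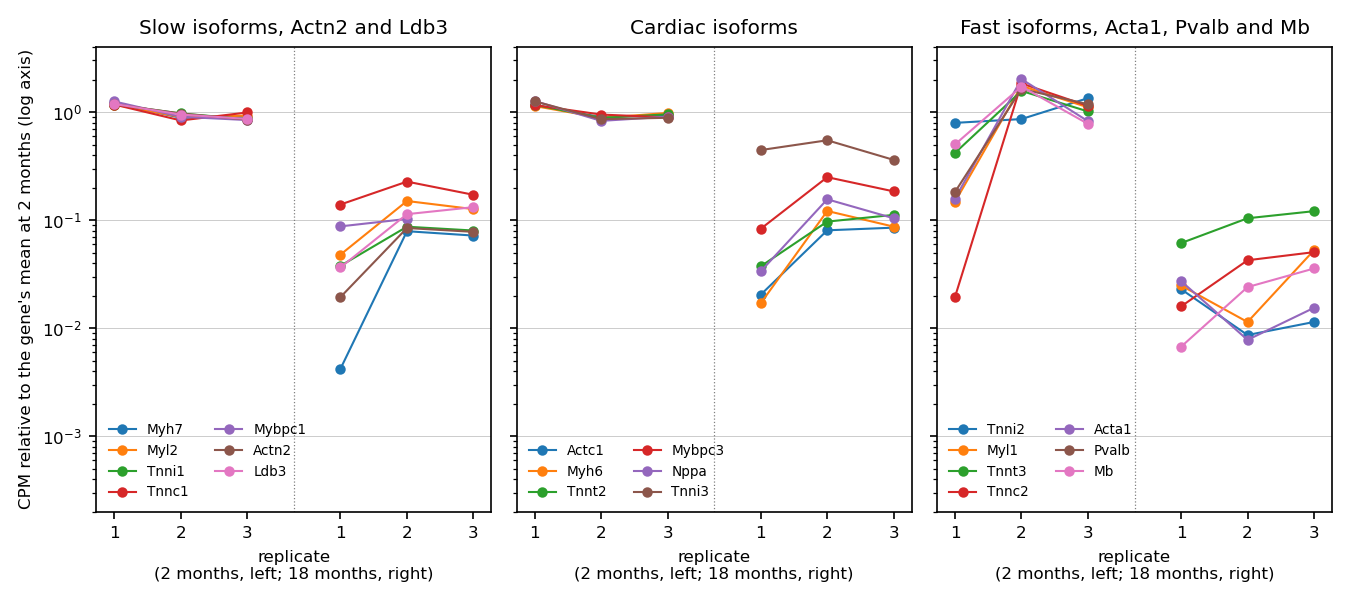
CPM of single genes in each library relative to the mean of the gene at 2 months (log axis), all chosen after the values were seen. The panels show some slow isoforms with Actn2 and Ldb3 (left), some cardiac isoforms (middle) and some fast isoforms with Acta1, Pvalb and Mb (right). Lines join the values of a gene and mark no order of the replicates, and values of 0 are left out. At 2 months the left and middle genes lie near 1 in all libraries, and in the right panel replicate 1 lies lowest.

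Other genes of muscle were taken from 5 further lists. Of 92 listed, 88 were in the table and 69 were tested, and of these 41 were called lower and 5 higher, with a median log2 fold change of -1.66. Over all genes tested, 21.3% were called lower and 14.9% higher, with a median of -0.02. Among 28 tested genes of the sarcomere 19 were called lower and 2 higher. Klhl41, a chaperone of the thin filament, had the largest change of the list, from 711, 906 and 1142 counts to 14, 0 and 0 (log2 fold change -7.90, SE 1.37, edgeR adjusted p = 0.00597), and the fitted change was -12.9 without 18-month replicate 1, where the remaining counts are 0. Tpm3, a tropomyosin of slow fibres that many other cells make and the most abundant gene of the list, was higher at 18 months, with 4401, 9901 and 4974 counts and then 31656, 28087 and 28986 (log2 fold change 1.97, SE 0.28, edgeR adjusted p = 0.00332). Tmod1, which caps actin filaments in muscle and in red blood cells, was the other gene called higher (log2 fold change 2.61, edgeR adjusted p = 0.0201). The call of Tmod1 was lost without 18-month replicate 2 or 3 or 2-month replicate 3 (edgeR adjusted p between 0.0592 and 0.0619), and its change was 3.67 without 2-month replicate 2 (edgeR adjusted p = 0.000231).

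Of the 19 tested genes of excitation-contraction coupling, 11 were called lower and Orai1, a calcium channel of the cell surface, was called higher (log2 fold change 1.29, edgeR adjusted p = 0.00415). The shares over all tested genes were 21.3% lower and 14.9% higher. Sypl2, a membrane protein of the triad, had 19, 18 and 15 counts at 2 months and 0 in each 18-month library, at least 6.62-fold lower in CPM (edgeR adjusted p = 0.00534). Atp2a2, the most abundant gene of this list, had 10503 to 12268 counts at 2 months and 9016 to 11387 at 18 months, and its log2 fold change of -0.45 (edgeR adjusted p = 0.0152) stayed under the limit. Of 11 tested muscle energy enzymes, 6 were called lower and 5 were not called. Slc25a4, the adenine nucleotide carrier of mitochondria, led in abundance, with 8672 to 12039 counts at 2 months and 4106 to 4258 at 18 months (log2 fold change -1.59, edgeR adjusted p = 0.00228), and Fabp3, a fatty acid binding protein of muscle and heart, had the largest change (-1.77, edgeR adjusted p = 0.0132).

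Several regulators of satellite cells and myoblasts had few counts. Pax7 had 7 counts in 2-month replicate 2 and 0 elsewhere, Myod1 had 4 in 2-month replicate 1 and 0 elsewhere, and Myog had 6, 6 and 0 at 2 months and 0 at 18 months. Cdh15, a cadherin of satellite cells and myoblasts, was detected in 5 of the 6 libraries, with 0, 847 and 32 counts at 2 months and 392, 507 and 497 at 18 months. It was not called (log2 fold change 0.54, edgeR adjusted p = 0.812) except, among the fits that left out 1 library, without 2-month replicate 2 (4.55, edgeR adjusted p = 0.0189). Mymk, a membrane protein required for myoblast fusion, had 189, 135 and 162 counts at 2 months and 0 in each 18-month library, at least 62.2-fold lower in CPM (edgeR adjusted p = 0.00189). Mef2c, a muscle factor that chondrocytes also use, was the most abundant gene of this list and was called lower (log2 fold change -1.76, edgeR adjusted p = 0.00342). Of 5 tested genes of this list 4 were called lower, and of 6 tested genes of the neuromuscular junction 1 was called lower and 2 higher. Among all tested genes, 21.3% were called lower and 14.9% higher. Ache, acetylcholinesterase, had 26, 489 and 9 counts at 2 months and 3477, 4045 and 4520 at 18 months (log2 fold change 4.38, SE 1.43, edgeR adjusted p = 0.0461), and Rapsn, which clusters acetylcholine receptors, was 2.08 higher on the log2 scale (edgeR adjusted p = 0.047). The calls of Ache and Rapsn were kept in only 1 of the 6 fits that left out 1 library, that without 2-month replicate 2, where the changes were 7.53 and 2.88. In the other 5 fits the edgeR adjusted p lay between 0.066 and 0.104 for Ache and between 0.0555 and 0.132 for Rapsn.

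Several lists of markers of other cell types moved with age beside these genes. Over all genes tested, 21.3% were called lower and 14.9% higher. Called lower were all 12 genes of the chondrocyte list, 8 of 11 of tendon and fibroblasts (led by Prg4, lubricin), 5 of 11 of smooth muscle and pericytes (led by Smtn, smoothelin) and 3 of 8 of bone cells (led by Ibsp, bone sialoprotein). Their summed levels were 36819 to 62372, 38434 to 40314, 615 to 666 and 4782 to 6874 CPM at 2 months and 584 to 1429, 7116 to 13073, 181 to 221 and 1224 to 1319 CPM at 18 months. All 8 neutrophil genes (led by S100a9) and all 8 erythroid genes (led by the globin Hbb-bs) had more CPM in every 18-month library than in any 2-month library. That order held for 35.6% of all tested genes. With edgeR 0 of the 8 neutrophil genes and 3 of the 8 erythroid genes were called higher, while 1 and 6 had an unadjusted p below 0.05. DESeq2 called 7 and 8, limma on log2(FPKM + 0.1) called 8 and 8, and edgeR without 2-month replicate 2 called 8 and 8, but edgeR without any single other library called 0 and 0. At 18 months they summed to 37672 to 41020 and 26848 to 35530 CPM. At 2 months the neutrophil genes summed to 6.29, 3342 and 52.1 CPM and the erythroid genes to 247, 6571 and 697 CPM in replicates 1, 2 and 3. Replicate 2, the highest 2-month library for most single fast genes, was thus also the highest for these. The sum of the fast isoforms was highest in 2-month replicate 3, at 162 CPM against 132 CPM in replicate 2. At 18 months, where the neutrophil and erythroid sums were highest, the fast isoforms summed to 8.99 to 10.3 CPM. Sums over genes of B lymphocytes, endothelial cells and adipocytes were 13.1 to 446, 14.2 to 252 and 15.3 to 66.6 CPM at 2 months and 981 to 1082, 293 to 332 and 161 to 197 CPM at 18 months. With edgeR 0 of 6 B lymphocyte genes, 1 of 6 endothelial genes and 1 of 3 tested adipocyte genes were called higher, and 0 were called lower. Every 18-month library lay above every 2-month library for 2, 1 and 3 of these tested genes. The part of these cells in the results on the muscle genes was not tested.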

How the data were processed

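Poly(A)-selected, strand-specific paired-end libraries with molecular identifiers in the adapters were sequenced from articular cartilage of 3 samples at each age. The authors deposited 1 table with a read count and an FPKM value per gene and library. The submitters' processing notes name cutadapt 1.9, HISAT2 2.0.4, UMI-tools, StringTie 1.3.4d, DESeq2 and edgeR without a role for each. The genome build and the strand setting of the counting are not given in the sources used here. All 12 columns of per-library values were mapped by name and 0 were left out.

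Genes were filtered with filterByExpr, scaled by TMM and tested with edgeR 4.0.16 (quasi-likelihood, R 4.3.3), 18 against 2 months, with an adjusted p limit of 0.05 and a log2 fold change limit of 1. Ratios between genes used the deposited FPKM. Sums, shares and Wilson intervals were computed in Python 3.11.15 with pandas 2.3.3, numpy 2.4.6 and scipy 1.17.1, and figures were drawn with matplotlib 3.10.9. Intervals and the floor of 3 counts cover counting error only. Bounds against the floor are ratios of mean CPM, which for the genes printed are lower than the same ratios after TMM scaling. Alternatives were DESeq2 1.42.0, limma 3.58.1 on log2(FPKM + 0.1) and log2(FPKM + 1), other scalings, no filter, a replicate block and each library left out. The scripts were tested on simulated data. All 35 members are described, with values in every library for the most abundant of each role, each called member, the heavy chains and the isoform pairs. Of each further muscle list the called gene with the largest change and the most abundant gene are named, and of other cell types the most abundant gene. Tmod1, Orai1, Rapsn, Myh6, Nppa, Matn1, Cnmd, Pax7, Myod1, Myog, Cdh15, Mybpc3 and Tnni3 were named after their values were seen. The members and lists were chosen with earlier results of these data known. The genes set against Myh7, the fast sum without Tnni2 and the promoters shown were chosen after their values were seen.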

Additional observations from a re-analysis of the deposited data

How the results depend on the processing

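Of the 19 called members, 15 kept their call in each of the 6 fits that left out 1 library and 14 in each of the 7 other alternatives. Members called numbered 26 with DESeq2 (2 higher, Ryr1 being the addition), 21 with no filter, 19 with either other scaling, and 18 and 15 with limma on log2(FPKM + 0.1) and log2(FPKM + 1). With limma on log2(FPKM + 1), 2217 genes were called lower in place of 4354, and 21 other muscle genes were called in place of 46, of which 17 in place of 41 were lower. Leaving out 1 library gave 2095 to 5007 genes called higher (3047 with all), 1 to 4 members higher and 2 to 8 other muscle genes higher (5 with all), each highest without 2-month replicate 2. The summed level at 2 months was 0.0298% without Myh7 and 0.0507% as a share of FPKM, against 0.0395%, and at 18 months 0.00705% of FPKM against 0.00828%. The 2 uncalled members that changed sign were Neb and Mybpc2. Neb ran from -1.39 to 0.026 on the log2 scale with 1 library left out, and Mybpc2 from -0.84 to 0.45, with 0.058 under limma on log2(FPKM + 0.1) and 0.17 with the replicate block. The cause was not tested. The labels number the replicates 1 to 3 at both ages, but deviations of same-numbered libraries correlated at 0.03, 0.04 and -0.02 over genes, so the numbers were not taken as pairs. With the replicate block 17 members, 36 other muscle genes and 6032 genes in all were called, and Myh7 (edgeR adjusted p = 0.0536) and Mybpc1 (0.0624) were not. The fast and developmental heavy chains had 0 counts in several libraries, where levels below the floor of 3 counts cannot be told apart.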
